A study of Homo sapiens with 121 samples.

Results

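The genes described here are 10 members of the fibroblast growth factor (FGF) pathway: the ligands FGF2, FGF4 and FGF5, the receptors FGFR1, FGFR2, FGFR3 and FGFR4, and the feedback targets SPRY2, SPRY4 and DUSP6. They were taken by symbol from the 25610 genes of the deposited expression table, and all 10 were in it. The values come from 121 single cells of WA26, a human embryonic stem cell (hESC) line that was kept undifferentiated in E8 medium on Matrigel and passaged with EDTA and the agent the labels call Rocki, with no treatment that differed between cells. In scT&R-seq, the polyadenylated mRNA of a cell is captured on beads and made into cDNA with the Smart-seq2 protocol, while the genomic DNA of the same cell serves to measure telomere repeats (T) relative to Alu repeats (R), and a transcriptome and a T/R ratio thus belong together. The labels place the cells in a long telomere group of 81 cells, a medium telomere group of 25 cells and a short telomere group of 15 cells, and the groups differ in no other way that the labels state.

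Most FGFs are secreted proteins that bind receptor tyrosine kinases at the cell surface with the help of heparan sulfate. The receptor passes the signal through adaptors and RAS to the kinases MEK and ERK, and ERK activity in turn raises the transcription of its own inhibitors, among them the Sprouty proteins and the phosphatase DUSP6. In hESC culture FGF2 is supplied in the medium to keep the cells pluripotent, so the ligand mRNA measured here is only that made by the cells themselves.

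The labels name neither separate cultures nor batches, so each telomere length group is treated as 1 sample, spreads are SDs across cells and no p-value was computed. Expression is in TPM, a share of all transcripts of a cell that is corrected for gene length and can be compared between genes, and TPM above 1 is called detected. Per cell, between 2030 and 11515 genes were detected. Their number was above 8000 in 68 cells (51 long, 14 medium and 3 short telomere cells), called gene-rich below, and 8000 or fewer in 53 cells (30 long, 11 medium and 12 short telomere cells), called gene-poor below. Because 12 of the 15 short telomere cells were gene-poor, the comparisons between groups are also given within either set. TPM keeps no number of reads, so a transcript that was not captured and a gene that was not expressed cannot be told apart where a value is listed at 0.

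By mean TPM, DUSP6 was the most abundant of the 10 genes at 118, followed by FGFR1 at 47.8, SPRY2 at 28.8, SPRY4 at 16.5 and FGFR2 at 12.9. FGF2 had a mean TPM of 9.52, FGFR4 of 5.24, FGF5 of 3.24, FGFR3 of 0.861 and FGF4 of 0.836. On the log2(TPM + 1) scale the means were 5.67 ± 2.60 for DUSP6, 4.82 ± 1.66 for FGFR1, 3.42 ± 2.44 for SPRY2, 3.16 ± 1.94 for SPRY4, 2.94 ± 1.74 for FGFR2, 2.42 ± 1.85 for FGF2, 1.80 ± 1.63 for FGFR4, 1.13 ± 1.21 for FGF5, 0.44 ± 0.89 for FGFR3 and 0.17 ± 0.77 for FGF4 (SD, n = 121 cells). Each neighbouring pair in this order differed by less than the SD of either gene, so only the ends of the order stand apart. A cell had a median of 7 of the 10 genes detected, with a range from 0 to 9. This number was 6.25 ± 2.10 among long, 5.96 ± 1.81 among medium and 4.40 ± 2.06 among short telomere cells. In gene-rich cells it was 7.35 ± 1.11, 7.14 ± 1.29 and 6.67 ± 0.58 for the same groups, and in gene-poor cells 4.37 ± 2.06, 4.45 ± 1.13 and 3.83 ± 1.90, so the difference of 1.85 between long and short telomere cells was 0.69 and 0.53 within the sets.

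**Figure D1:**
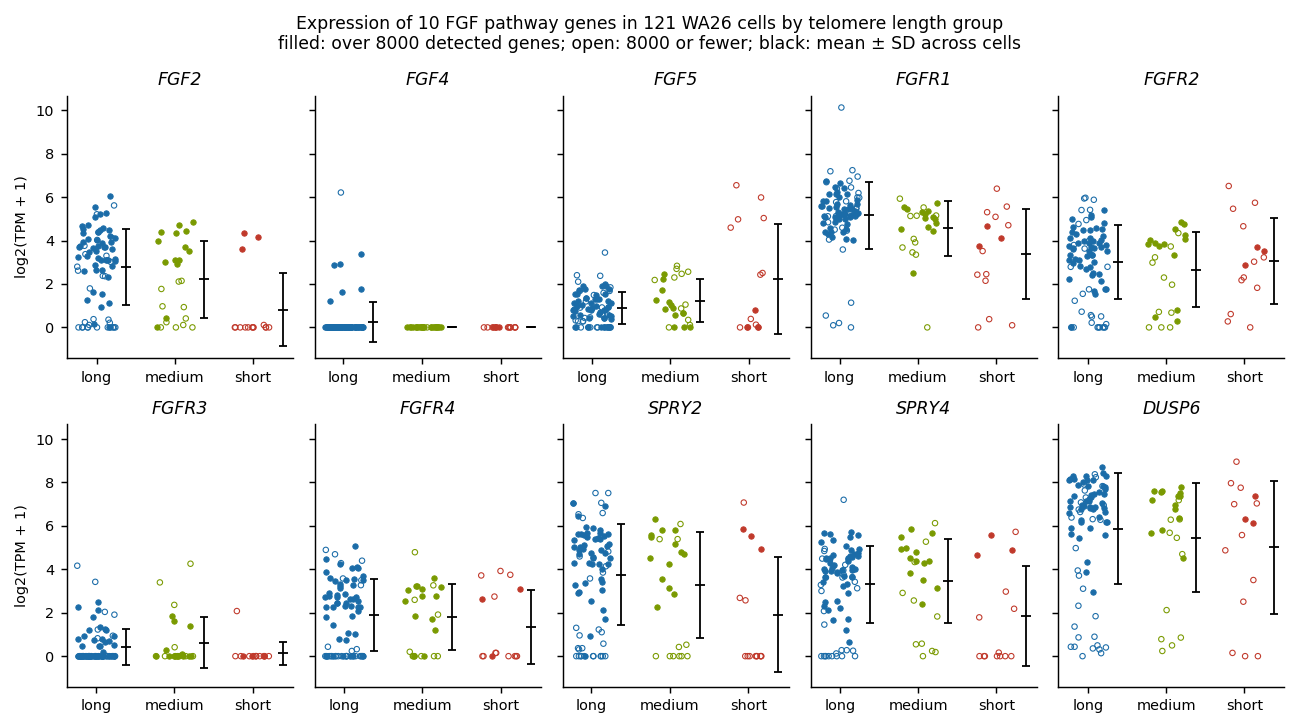
Each point is 1 of 121 cells, with log2(TPM + 1) on the vertical axis and the telomere length group on the horizontal axis, 1 panel per gene. Filled points are the 68 gene-rich cells and open points the 53 gene-poor cells, and black bars give the mean ± SD across cells. FGF2 lies at or near 0 in 12 of the 15 short telomere cells, the 5 highest FGF5 values are in short telomere cells, and all groups overlap in FGFR2 and DUSP6.

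Among the 3 ligands, FGF2, the factor that supports hESC self-renewal, was above TPM 1 in the most cells. Above TPM 0 the order was not the same, with FGF2 in 77.7% and FGF5 in 78.5% of cells. The gene lies at chr4:123747837-123819391 on the plus strand of GRCh37. It was detected in 80 of 121 cells (66.1%, exact 95% binomial interval 57.0 to 74.5%). This interval and those below cover counting error only. TPM ran from 0 over a median of 7.95 to 65.3 in long telomere cells, from 0 over 3.42 to 27.6 in medium telomere cells, and from 0 over 0 to 19.5 in short telomere cells. The short telomere cells fell into a high and a low end, with 3 cells at 11.1, 16.8 and 19.5 that were the 3 gene-rich cells of the group, and 12 gene-poor cells of which 11 were listed at 0 and 1 had a TPM of 0.08. Detection was 76.5% of long, 60.0% of medium and 20.0% of short telomere cells. Among gene-poor cells it was 15 of 30 long (50.0%), 3 of 11 medium (27.3%) and 0 of 12 short telomere cells, which allows a share of up to 25%. With only the 8 gene-poor short telomere cells that had at least 4000 detected genes, a choice made after the values were seen, FGF2 was detected in 0 of 8, which allows up to 37.5%.

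NUDT6, a gene that lies antisense to FGF2 and overlaps its 3′ end (chr4:123809852-123844123, minus strand), was detected in 55 cells. It was detected together with FGF2 in 48 cells, and FGF2 without NUDT6 was found in 32 cells. For counting, the methods name HTSeq at its default settings and the submitters' notes name RSEM. Smart-seq2 libraries do not mark the strand, so the strand of a read in the shared stretch does not tell its gene. Reads of either gene there may be credited to the other. Spearman's rho between FGF2 and NUDT6 was 0.349 across all cells, 0.116 in gene-rich and 0.175 in gene-poor cells.

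FGF4, an early embryonic ligand, was near the limit of detection. It lies at chr11:69585790-69590109 on the minus strand. It was listed at 0 in 114 cells and detected in 7 (5.79%), all of them long telomere cells, with TPM values of 73.1, 9.45, 6.56, 6.25, 2.45, 2.06 and 1.30. It was detected in 0 of 25 medium telomere cells, which allows a share of up to 12%, and in 0 of 15 short telomere cells, which allows up to 20%. The share in long telomere cells was 8.64% (3.55 to 17.0%), which lies below both of these limits. No difference between the groups is read from these counts. One gene-poor long telomere cell held 72.3% of the summed TPM of FGF4.

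FGF5, a ligand that rises as pluripotent cells leave the naive state, was present at a low level in many cells and at a high level in a few. It lies at chr4:81187793-81257834 on the plus strand. TPM ran from 0 over a median of 0.78 to 9.90 among long, from 0 over 1.02 to 6.14 among medium and from 0 over 0.74 to 92.5 among short telomere cells. Over all cells the medians differ little and the upper ends differ widely. In gene-poor cells the medians were 0.365, 3.54 and 4.53, and in gene-rich cells 0.89, 0.825 and 0. Above TPM 10, FGF5 was found in 5 of the 15 short telomere cells, at 92.5, 62.3, 31.8, 30.5 and 23.2, and in none of the 81 long or 25 medium telomere cells. All 5 were gene-poor, with 3481 to 6407 detected genes, and the 3 gene-rich short telomere cells had FGF5 at 0, 0 and 0.74. At the lower border of TPM 1, detection over all cells did not separate the groups. It was 39.5% (28.8 to 51.0%) of long, 52.0% (31.3 to 72.2%) of medium and 46.7% (21.3 to 73.4%) of short telomere cells. In gene-poor cells it was 10 of 30 long (33.3%), 7 of 11 medium (63.6%) and 7 of 12 short telomere cells (58.3%). In gene-rich cells it was 22 of 51, 6 of 14 and 0 of 3.

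The 5 short telomere cells with FGF5 above TPM 10 are described by their values only, since they were picked by FGF5. FGF2 was listed at 0 in all 5. FGFR2 was 90.2, 7.14, 52.5, 0.53 and 3.92 in the cells with FGF5 at 92.5, 62.3, 31.8, 30.5 and 23.2, in this order. DUSP6 was 4.69, 10.4, 0, 495 and 28.3 in the same order, so that the cell with FGF5 at 30.5 held the highest DUSP6 value of all 121 cells. POU5F1, a defining pluripotency gene, was between 342 and 2135 in these cells, and NANOG was 79.1, 30.6, 0, 10.2 and 104.

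FGF2 and FGF5 were detected together in 33 cells, FGF2 without FGF5 in 47, FGF5 without FGF2 in 19 and neither in 22. No short telomere cell had both: 3 had FGF2 alone, 7 had FGF5 alone and 5 had neither. In gene-poor long telomere cells the numbers were 5 with both, 10 with FGF2 alone, 5 with FGF5 alone and 10 with neither. Of the 99 cells with any of the 3 ligands above TPM 1, FGF2 was the highest ligand in 78, FGF5 in 19 and FGF4 in 2. By group, FGF2 was the highest in 61 of 67 long, 14 of 22 medium and 3 of 10 short telomere cells, and FGF5 in 4 of 67, 8 of 22 and 7 of 10. FGF2 made up 71.3% ± 35.4 of the summed ligand TPM per cell among long, 60.1% ± 40.6 among medium and 24.8% ± 44.6 among short telomere cells, a difference between long and short telomere cells barely larger than the SD of the latter. In gene-rich cells the short telomere cells had the highest part, with 81.3% ± 23.7, 80.6% ± 28.9 and 98.8% ± 2.11, and in gene-poor cells the parts were 52.5% ± 45.4, 31.3% ± 37.7 and 0.199% ± 0.598. Likewise, FGF2 was the highest ligand in 46 of 47 long, 12 of 13 medium and 3 of 3 short telomere cells among the gene-rich, and in 15 of 20, 2 of 9 and 0 of 7 among the gene-poor.

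Among the receptors, FGFR1, the main FGF receptor of hESCs, was found in almost every cell. The gene is on the minus strand of chromosome 8. It was detected in 113 cells (93.4%, interval 87.4 to 97.1%) and in all 68 gene-rich cells. TPM ran from 0 over a median of 38.0 to 1116 among long, from 0 over 32.0 to 59.9 among medium and from 0 over 12.2 to 82.8 among short telomere cells. The ranges overlap, and the short telomere cells are the lowest by median. The value of 1116 was in a gene-poor long telomere cell that held 19.3% of the summed FGFR1 TPM, and the next highest value was 150. In gene-rich cells FGFR1 was less variable, with TPM from 15.2 over 38.0 to 106 in 51 long telomere cells and values of 12.2, 16.6 and 24.7 in the 3 short telomere cells.

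FGFR2, a receptor with splice forms for epithelial and mesenchymal ligands, lies at chr10:123237846-123357972 on the minus strand and was detected in 95 cells (78.5%). Its TPM ran from 0 over 9.23 to 61.7 among long, from 0 over 8.97 to 27.7 among medium and from 0 over 7.14 to 90.2 among short telomere cells, and the groups overlap throughout. FGFR4, a receptor for FGF19 among other ligands, at chr5:176513906-176525145 on the plus strand, was detected in 70 cells (57.9%). In long, medium and short telomere cells its medians were 3.86, 2.77 and 0.11 and its highest values 32.4, 26.6 and 14.2. The medians were 5.19, 5.795 and 5.14 in gene-rich cells and 0, 0 and 0.055 in gene-poor cells, so within the sets they did not fall in this way. FGFR3, a receptor best known from bone growth, at chr4:1795020-1810599 on the plus strand, was detected in 20 cells (16.5%) and never above TPM 18.1. The annotation names 4 pseudogenes after FGFR3, with which it could share reads.

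Within a cell, FGFR1 made up 65.7% ± 24.3 of the summed TPM of the 4 receptors (120 cells with a receptor above 0). Of the 115 cells with a receptor above TPM 1, FGFR1 was the highest in 101, FGFR2 in 13, FGFR4 in 1 and FGFR3 in 0. The FGFR1 part was 70.0% ± 20.4 among long, 63.3% ± 25.6 among medium and 46.7% ± 32.6 among short telomere cells, and FGFR2 was the highest receptor in 6 of 77, 3 of 25 and 4 of 13 cells. In gene-rich cells the FGFR1 part was 67.5% ± 15.7 for 51 long, 62.0% ± 19.4 for 14 medium and 56.6% ± 20.0 for 3 short telomere cells. Of all cells, 55 had 3 receptors detected, 31 had 2, 15 had 1, 14 had all 4 and 6 had none.

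Among the feedback targets, DUSP6, the phosphatase that removes phosphate from ERK, was the most abundant. It lies at chr12:89741012-89746278 on the minus strand and was detected in 104 cells (86.0%), in 100% of gene-rich and in 67.9% of gene-poor cells. TPM ran from 0 over 114 to 412 among long, from 0.18 over 77.9 to 218 among medium and from 0 over 68.6 to 495 among short telomere cells, with full overlap. SPRY2 and SPRY4 encode Sprouty proteins, which hold back the signal between receptor and ERK. SPRY2, at chr13:80910111-80915261 on the minus strand, was detected in 86 cells (71.1%) with medians of 21.9, 18.2 and 0 in long, medium and short telomere cells. Its highest values in these groups were 182, 79.4 and 134. SPRY4, at chr5:141689992-141706020 on the minus strand, was detected in 94 cells (77.7%) with medians of 13.7, 18.5 and 0.12 and highest values of 146, 68.9 and 51.9. All 3 feedback targets were detected in 78 cells and none of them in 10, and the 10 were gene-poor cells.

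SPRY4-IT1, a transcript of the SPRY4 locus, was detected in 43 cells and had a rho of 0.308 with SPRY4 across all cells, 0.238 in gene-rich and 0.00278 in gene-poor cells. The antisense gene SPRY4-AS1 overlaps the start of SPRY4 (chr5:141704774-142051566, plus strand) and was not analysed here.

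**Figure D2:**
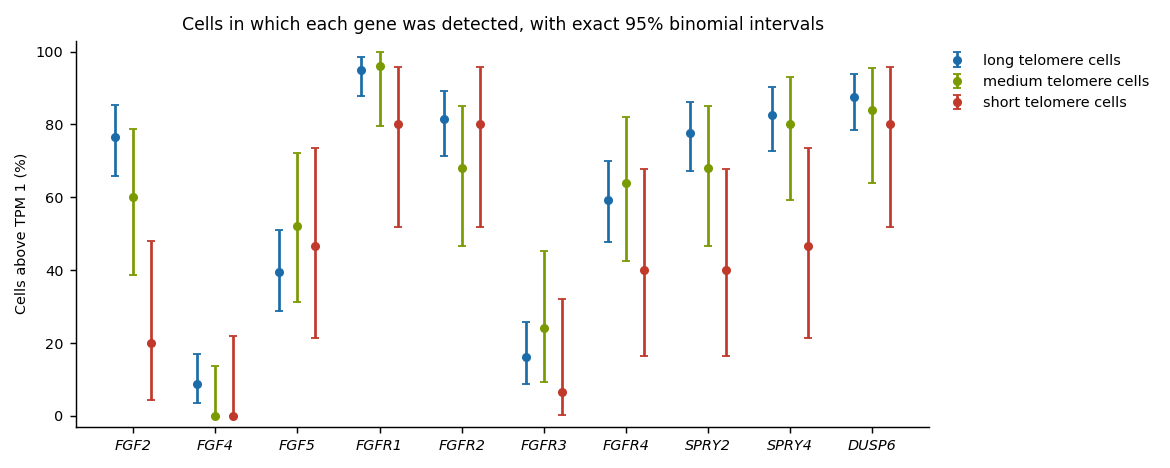
Points give the percentage of cells above TPM 1 for each gene in the long, medium and short telomere group (81, 25 and 15 cells), and bars the exact 95% binomial interval. The intervals cover counting error only and pool gene-rich and gene-poor cells. Those of long and short telomere cells do not overlap for FGF2 (65.8 to 85.2% against 4.33 to 48.1%) and overlap for FGF5, FGFR2 and DUSP6. FGF2 was detected in 47 of 51 long and 3 of 3 short telomere cells among the gene-rich, and in 15 of 30 and 0 of 12 among the gene-poor.

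SPRY4 and DUSP6 had the highest rho of all pairs of the 10 genes (below), so the stretches before their starts are shown as references for that pair. Both are the 250 bases before the transcription start, 5′ to 3′ on the strand of the gene, from RefSeq on GRCh38.p14. Capitals mark CGGAA or its reverse complement TTCCG, the core to which ETS factors such as the ERK-responsive ETV4 and ETV5 bind.
DUSP6 (chr12:89352502-89352751, minus strand): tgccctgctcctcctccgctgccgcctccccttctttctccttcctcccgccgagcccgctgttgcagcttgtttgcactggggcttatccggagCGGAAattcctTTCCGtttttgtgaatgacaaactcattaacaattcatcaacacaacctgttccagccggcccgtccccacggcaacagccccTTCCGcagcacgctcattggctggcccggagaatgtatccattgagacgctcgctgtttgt
SPRY4 (chr5:142324248-142324497, minus strand): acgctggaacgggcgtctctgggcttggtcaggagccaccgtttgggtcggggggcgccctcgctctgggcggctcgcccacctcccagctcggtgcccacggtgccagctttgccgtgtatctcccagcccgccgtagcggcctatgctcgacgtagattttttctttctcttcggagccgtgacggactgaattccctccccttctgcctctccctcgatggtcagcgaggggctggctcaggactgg

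The DUSP6 window holds 3 matches to these letters, whose first bases lie at -155, -144 and -61 from the start. The SPRY4 window holds no match to them, though it does hold GGAA after another letter. In the promoter table used, 8 of the 10 genes were listed with 16 windows in all. Of these windows 2, that of DUSP6 and 1 of the 3 of SPRY2, held a match. Of all 35116 windows of this length, 30.3% held at least 1 match and 9.58% held 2 or more. The AP-1 letters TGANTCA, which read the same on both strands, were in 0 of the 16 windows and in 6.57% of all windows. A match is a description of the letters and not a binding site.

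The comparison of long with short telomere cells asks whether the FGF pathway genes go with telomere length. The difference of mean log2(TPM + 1), long minus short, was at least 1 for FGF2, FGFR1, SPRY2 and SPRY4, 4 of the 10 genes, and at most -1 for FGF5. Of the 15956 genes above TPM 1 in at least 5 cells, 32.7% passed the same border upwards and 3.18% downwards, so the 4 higher genes are close to the share among all genes. The median difference was 0.70 over the 10 genes and 0.50 over the 15956 genes. A scaling of each cell by the median of its ratios over 602 genes present in every cell lowered the latter to 0.31 and the former to 0.35, and 4 and 1 of the 10 genes passed the borders under that scaling too.

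FGF2 had the widest separation, with 2.78 ± 1.75 in 81 long and 0.81 ± 1.67 in 15 short telomere cells, a difference of 1.97 that was larger than either SD. The long telomere cell was the higher in 73.4% of all long-short pairs, the lower in 15.6% and equal in 10.9%. FGFR1 was 5.16 ± 1.54 against 3.37 ± 2.05, a difference of 1.79 that was smaller than the SD of the short telomere cells, with the long telomere cell higher in 78.0% of pairs. SPRY2 was 3.74 ± 2.33 against 1.91 ± 2.65 and SPRY4 was 3.30 ± 1.79 against 1.87 ± 2.30, with differences of 1.83 and 1.44 and the long telomere cell higher in 65.8% and 64.8% of pairs. FGF5 was 0.90 ± 0.72 against 2.23 ± 2.52, a difference of -1.33 that was smaller than the SD of the latter, with the lower value in the long telomere cell in 52.7% of pairs. The difference of the group medians for FGF5 was 0.03, close to 0, so over all cells the means but not the medians separate the groups. In gene-poor cells the median TPM was 0.365 in long and 4.53 in short telomere cells. For DUSP6 the difference was 0.85, with 5.86 ± 2.55 in long against 5.01 ± 3.06 in short telomere cells and 59.8% of pairs higher. FGFR2 had a difference of -0.05, FGFR3 of 0.30, FGFR4 of 0.54 and FGF4 of 0.25, each smaller than the SD of the long telomere cells. Within the sets DUSP6 had 0.37 in gene-rich and -0.64 in gene-poor cells, and FGFR4 had 0.51 and -0.22.

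Between long and medium telomere cells none of the 10 genes passed a difference of 1 in either direction, against 0.752% of all genes upwards and 0.326% downwards. The largest difference in size was 0.60 for FGFR1, followed by 0.57 for FGF2. Medium minus short, the same 4 genes passed upwards (background 28.5%) and 0 downwards (3.48%), with differences of 1.60 for SPRY4, 1.40 for FGF2, 1.37 for SPRY2 and 1.18 for FGFR1, and FGF5 reached -0.99. Over all cells the medium telomere cells were thus nearer to the long than to the short telomere cells in these 5 genes.

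Within the sets most of this did not hold. In gene-rich cells, 0 genes passed medium minus short in either direction (9.55% of all genes upwards, 10.7% downwards), and FGF2 at -0.71, SPRY2 at -0.86 and SPRY4 at -0.61 had turned, while FGFR1 had 0.72. In gene-poor cells SPRY4 alone passed upwards at 1.17 (22% of all genes), and FGF5 at -1.13 and FGFR2 at -1.17 passed downwards (6.85%). There FGF2 had 0.78, FGFR1 0.95 and SPRY2 0.59. Long minus medium, 0 of the 10 genes passed in gene-rich cells (0.815% upwards, 0.57% downwards) or in gene-poor cells (5.03% and 4.37%). In gene-poor cells FGF2 had 0.98 and SPRY2 0.67 in that comparison, against 0.78 and 0.59 for medium minus short. The SDs of the long telomere cells were 1.87 and 2.80, so these values do not place the medium telomere cells nearer to either group.

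**Figure D3:**
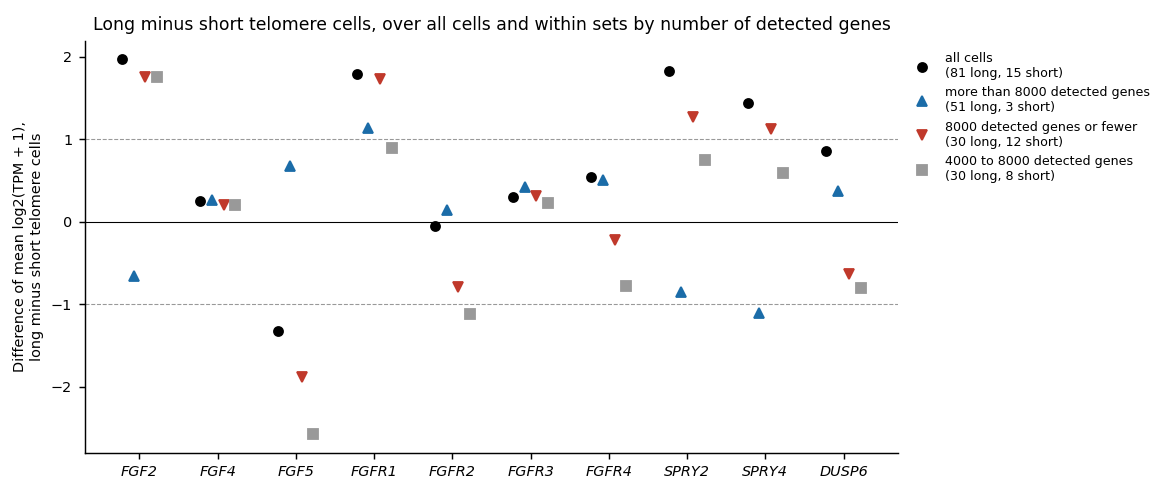
Each mark is the difference of mean log2(TPM + 1), long minus short telomere cells, for 1 gene over all cells, over gene-rich cells, over gene-poor cells, or over gene-poor cells with at least 4000 detected genes (legend gives the cell numbers), and dashed lines mark 1 and -1. FGFR1 (0.90 to 1.79), FGF4 (0.21 to 0.27) and FGFR3 (0.22 to 0.42) are above 0 in all 4 sets. FGF2, FGF5, SPRY2 and SPRY4, past 1 or -1 over all cells, change sign in the gene-rich cells.

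The number of detected genes moved with the groups, at 8296 ± 2152 among long, 7980 ± 2070 among medium and 5784 ± 2355 among short telomere cells. Across all cells it had a rho of 0.63 with FGF2, 0.37 within gene-rich and 0.27 within gene-poor cells. Its part in the differences above cannot be told apart from that of telomere length in the pooled cells, so they were computed again on either side of 8000 detected genes.

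In the gene-rich cells, where 3 short telomere cells stand against 51 long ones, FGFR1 kept a difference of 1.13 (5.32 ± 0.66 against 4.18 ± 0.48), larger than either SD, and 92.8% of pairs had the higher value in the long telomere cell. It was the 1 gene of 10 to pass upwards, against 9.6% of all genes. SPRY4 was the 1 gene to pass downwards, at -1.10 (3.95 ± 1.18 against 5.05 ± 0.46, background 8.67%), the opposite of its pooled direction. FGF2 and SPRY2 also changed direction, with differences of -0.66 and -0.85, and FGF5 with 0.68.

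In the gene-poor cells, with 30 long and 12 short telomere cells, 4 genes passed upwards (background 22.3%) and 1 downwards (6.33%), as over all cells. FGF2 was 1.77 ± 1.87 against 0.01 ± 0.03, a difference of 1.76. FGFR1 had 1.73, SPRY2 1.27, SPRY4 1.13 and FGF5 -1.89. Leaving out in addition the 4 short telomere cells with under 4000 detected genes, so that 30 long and 8 short telomere cells with 4000 to 7686 detected genes remained, left FGF2 at 1.76 as the 1 gene that passed upwards (18.3% of all genes). FGFR1 then had 0.90, SPRY2 0.75 and SPRY4 0.60. Downwards, 2 of the 10 genes passed against 13.7% of all genes: FGF5 at -2.57 (0.83 ± 0.94 against 3.40 ± 2.53) and FGFR2 at -1.12 (2.19 ± 2.24 against 3.31 ± 2.13). In this narrower range of detected genes FGF2, FGF5, FGFR1, SPRY2 and SPRY4 thus all kept their directions. Of these, FGF2 and FGF5 stayed past a difference of 1 in size. The FGF5 difference was larger than either SD, and the FGF2 difference was smaller than the SD of the long telomere cells.

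Telomere length can also be taken as a continuous value, the T/R ratio that the study lists for each cell. Pearson's coefficient between TPM and this ratio across 121 cells, which share a cell line and differ in the number of detected genes, was at least 0.2 for FGFR1 (0.271, Spearman's rho 0.349), 1 of the 10 genes against 7.21% of all genes. It was at most -0.2 for FGF5 (-0.253, rho -0.0323), 1 of 10 against 2.65%. For FGF5 the coefficient by rank was thus near 0. For the other genes the coefficient was 0.163 for FGF4, 0.139 for FGF2, 0.103 for SPRY2, 0.0838 for SPRY4, 0.0498 for FGFR2, 0.0389 for FGFR3, -0.0128 for FGFR4 and -0.0267 for DUSP6.

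The FGFR1 coefficient was 0.288 without the 2 cells of most extreme T/R ratio (farthest from the median), 0.279 given the number of detected genes and 0.359 without the cell at TPM 1116. Within the sets it was 0.139 in gene-rich and 0.315 in gene-poor cells, and within the groups 0.236 among long, 0.328 among medium and 0.454 among short telomere cells. The rho within long telomere cells was 0.0788, far below the Pearson value. FGF5 had -0.263 without the 2 farthest cells, 0.110 in gene-rich and -0.306 in gene-poor cells, and by group 0.224 (long), -0.0301 (medium) and -0.0830 (short). FGF2 had 0.0194 in gene-rich and 0.279 in gene-poor cells. SPRY4 had -0.240 in gene-rich and 0.219 in gene-poor cells, and -0.0988 over all cells without the cell with its highest value. FGF4 fell to 0.0605 without its highest cell, and FGFR2 to -0.102 without the same 2 cells of extreme T/R ratio.

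**Figure D4:**
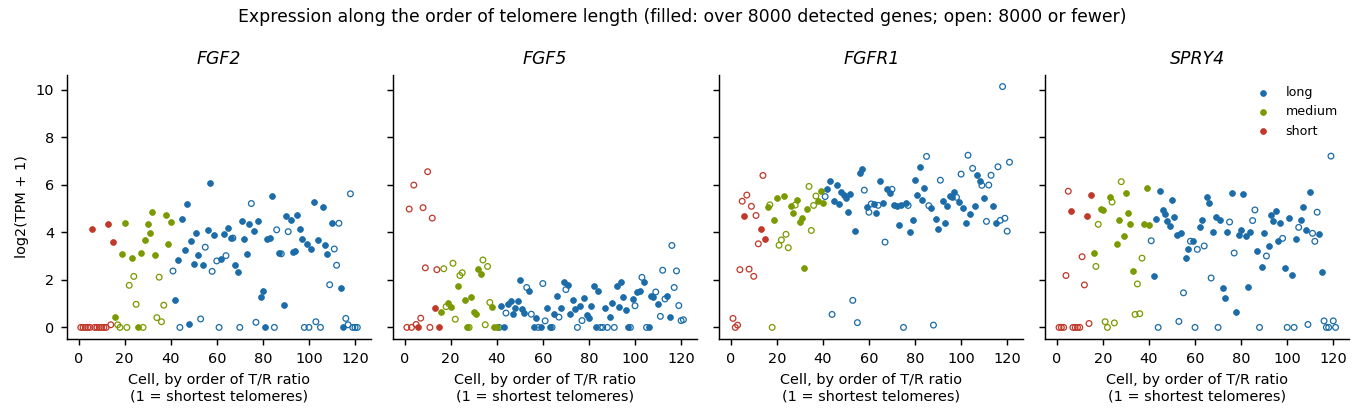
Each point is 1 cell, placed by the order of its T/R ratio (1 is the shortest of 121) on the horizontal axis and by log2(TPM + 1) on the vertical axis, with filled points for gene-rich and open points for gene-poor cells. FGF5 values above TPM 10 are found only at the short telomere end, and FGF2 lies at 0 to 0.08 TPM in the open points of short telomere cells, while FGFR1 is spread over all orders.

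The 10 genes were then compared with each other across cells. Over the 45 pairs, rho had a median of 0.110 across all cells, 0.0366 in gene-rich and 0.0483 in gene-poor cells. The highest was SPRY4 with DUSP6, at 0.504 across all cells, 0.327 in gene-rich and 0.358 in gene-poor cells. SPRY2 with SPRY4 had 0.453, 0.223 and 0.329, and SPRY2 with DUSP6 had 0.326, -0.117 and 0.130. Among pairs of a ligand and a target, FGF2 with SPRY2 had 0.462 across all cells, 0.265 in gene-rich and 0.195 in gene-poor cells. FGF2 with DUSP6 had 0.272, -0.230 and 0.116, so its sign depended on the set. FGFR1 with SPRY2 had 0.213 across all cells, -0.120 in gene-rich and 0.404 in gene-poor cells, the highest value in the last set. FGF5 with SPRY4 was the lowest pair, at -0.210 across all cells and -0.385 in gene-poor cells, but -0.0185 in gene-rich cells.

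**Figure D5:**
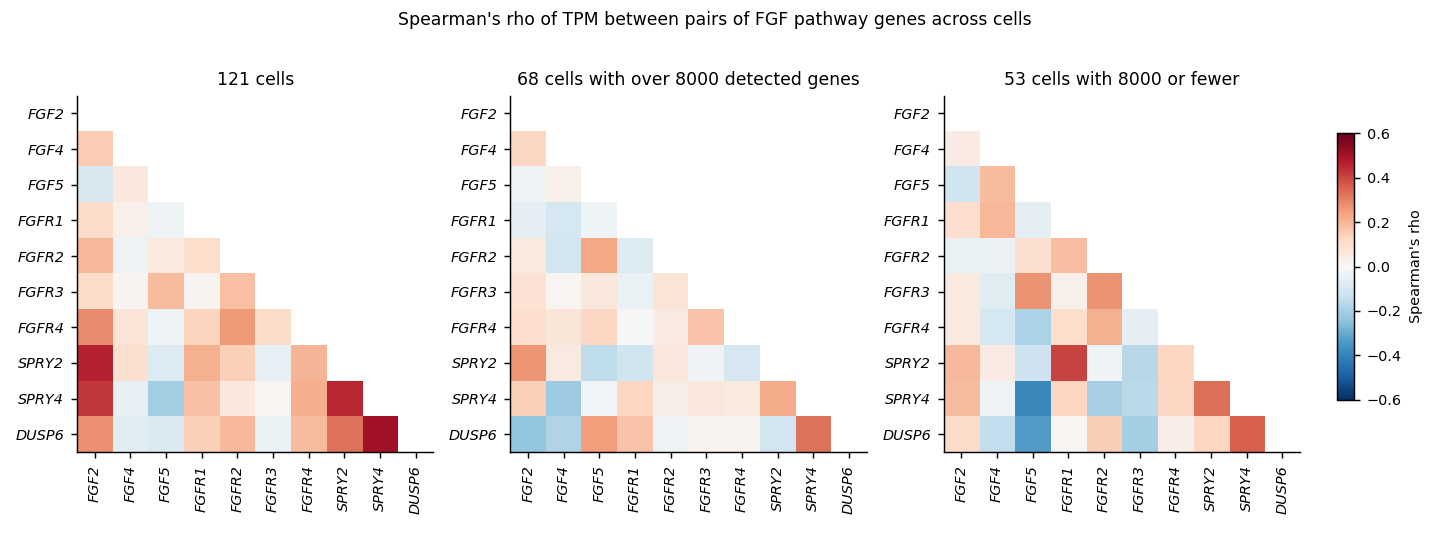
The colour gives Spearman's rho of TPM for each of the 45 pairs of genes across 121 cells (left), 68 gene-rich cells (middle) and 53 gene-poor cells (right), from -0.6 (blue) to 0.6 (red). SPRY4 with DUSP6 is positive in all 3 panels (0.504, 0.327 and 0.358), and the median over the pairs is 0.110, 0.0366 and 0.0483 from left to right.

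With the pluripotency genes, FGF2 had a rho of 0.480 with NANOG across all cells, 0.339 in gene-rich and 0.382 in gene-poor cells. FGFR2 with SOX2 had 0.338, 0.234 and 0.365. DUSP6 with POU5F1 had 0.336, 0.140 and 0.278, and FGFR1 with NANOG had 0.188, -0.0994 and 0.334.

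For each of the 7 genes detected in over 50% of the cells, the 3 genes with the most similar pattern were taken by rho over 121 cells out of 6213 genes whose mean TPM was 10 or more. FGF2 was most like EEF1A1 (0.660), CAV1 (0.660) and NT5C2 (0.646), FGFR1 most like LAPTM4B (0.518), PPAP2A (0.439) and KPNA2 (0.422), and FGFR2 most like RPL36A-HNRNPH2 (0.498), LIN28A (0.489) and USP28 (0.467). FGFR4 was most like UTP15 (0.454), FAM35A (0.451) and MRPS31 (0.447). SPRY2 was most like DEPDC1B (0.553), HMGN4 (0.541) and ATP13A3 (0.534), and SPRY4 most like MCL1 (0.592), DCTN4 (0.582) and WDR36 (0.580). DUSP6 was most like IER3, another immediate early target of ERK (0.534), SALL1 (0.519) and ATF4 (0.518). Each of these values was lower in gene-rich cells, but not each in gene-poor cells. Higher in gene-poor cells were, among others, DUSP6 with IER3 (0.188 in gene-rich and 0.549 in gene-poor cells) and FGFR1 with LAPTM4B (0.313 and 0.633). FGF2 with CAV1 was lower in both sets, at 0.323 and 0.569. EEF1A1 itself had a rho of 0.674 with the number of detected genes.

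The rest of the pathway was taken from 4 lists. Of 19 other FGF family genes, which include intracellular members, 9 were above TPM 1 in at least 5 cells and 5 were listed at 0 in every cell. Of the 9, 3 were higher in long than in short telomere cells by at least 1 on the log2 scale. None were lower by as much, and the median difference was 0.70. The 3 of 9 are at the share among all genes, 32.7% (3.18% lower). Intracellular FGF13 had the highest mean TPM, 41.1, and a difference of 2.52 (4.74 ± 2.17 against 2.22 ± 2.33). FGF19, an endocrine FGF, had a mean TPM of 37.7 and a difference of 3.10 (4.56 ± 2.02 against 1.46 ± 2.10), and intracellular FGF12 had 8.52 and 1.11. Both FGF13 and FGF19 were thus more abundant than FGF2. In the gene-rich cells the difference of FGF13 was 0.31 and that of FGF19 -0.03, and FGF12 kept 1.31. In the gene-poor cells FGF13 had 2.19, FGF19 3.31 and FGF12 0.89. Of the 9 genes, 2 were higher and 1 lower in gene-rich cells (9.6% and 8.67% of all genes). In gene-poor cells 2 were higher and 0 lower (22.3% and 6.33%). With the T/R ratio, FGF13 had a Pearson coefficient of 0.272, FGF12 of 0.263 and FGF19 of 0.224.

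Of the coreceptors and binding proteins, 5 of 12 were higher and 0 lower (32.7% and 3.18% of all genes), with a median difference of 0.82. In gene-rich cells 1 was higher and 0 lower (9.6% and 8.67%), and in gene-poor cells 4 and 0 (22.3% and 6.33%). The heparan sulfate proteoglycan GPC4 had the largest difference named, 3.27 over all cells, -0.42 in gene-rich and 2.87 in gene-poor cells. In the same order the proteoglycan SDC4 had 2.32, -0.25 and 1.93. FGFBP3, a carrier protein for FGFs, had 0.04, -0.63 and 0.54. Of the adaptors and the RAS-ERK relay, 12 of 19 were higher and 0 lower, with a median of 1.20, against 32.7% and 3.18% of all genes. In gene-rich cells 2 were higher and 1 lower with a median of 0.06, against 9.6% and 8.67%. In gene-poor cells 6 were higher and 0 lower with a median of 0.78, against 22.3% and 6.33%. The adaptor SHC1 had 1.77 over all cells, -0.19 in gene-rich and 1.25 in gene-poor cells, and the adaptor GRB2 0.40, 0.15 and 0.12.

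Of the other ERK targets and feedback inhibitors, 9 of 18 were higher and 0 lower, with a median of 0.98, against 32.7% and 3.18% of all genes. In gene-rich cells 4 were higher and 1 lower with a median of 0.04, against 9.6% and 8.67%. In gene-poor cells 7 were higher and 0 lower with a median of 0.51, against 22.3% and 6.33%. IER3 had a difference of 2.81 over all cells, -0.43 in gene-rich and 1.64 in gene-poor cells. In the same order the ETS factor ETV5 had 2.45, 0.84 and 2.02. The immediate early gene IER2 had 2.67, 2.52 and 1.93, and the ETS factor ETV4 had 1.81, 1.32 and 0.82. IER2 and ETV4 were thus above 1 both over all cells and in gene-rich cells. The other 2 genes above 1 in gene-rich cells, named after their values were seen, were the Sprouty gene SPRY1 (1.27 over all cells and 1.27 in gene-rich cells) and the immediate early gene EGR1 (1.34 and 1.60), and the gene below -1 there was FOS (1.06 and -1.57). The cyclin CCND1 had 1.40 over all cells, 0.33 in gene-rich and 1.62 in gene-poor cells. The median over all genes was 0.50 over all cells and 0.12 in gene-rich cells, so the lists, too, lie above it over all cells and near 0 in the gene-rich cells. In gene-poor cells the median over all genes was 0.21. The medians of the lists there were 0.16 for other FGF family genes, 0.68 for coreceptors, 0.78 for the relay and 0.51 for other targets.

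The pluripotency markers checked the label of the line: all 8 were detected in at least 93.4% of the cells, and POU5F1 and LIN28A in every cell. Their summed TPM had a median of 2876 among long, 2487 among medium and 1213 among short telomere cells. The ranges were 849 to 4106, 816 to 4062 and 602 to 2855. Over all cells 6 of 8 markers were higher in long than in short telomere cells by at least 1 (32.7% of all genes). In gene-rich cells 0 of 8 were (9.6%), and in gene-poor cells 5 of 8 (22.3%). Of the lineage markers, GATA6, HAND1, NEUROG1, LUM and TWIST1 were listed at 0 in every cell. The summed TPM of the 4 mesoderm markers had a median of 0.72 among long, 0.36 among medium and 7.64 among short telomere cells (ranges 0 to 56.5, 0 to 43.0 and 0 to 104). MIXL1, a primitive streak gene detected in 46 cells, had a difference of -0.89, MESP1 had -0.20, and T was detected in 1 cell. Endoderm markers summed to at most 12.6 in any cell. Neural markers had medians of 17.6, 18.5 and 15.0, trophoblast markers of 0.39, 1.66 and 0.21 and fibroblast markers of 5.64, 4.13 and 0.12. Over all cells and in gene-poor cells the pluripotency markers thus moved with the same groups as FGF2. In gene-rich cells their median difference was 0.24, while FGF2 had -0.66. Of the mesoderm markers 0 passed a difference of 1 in either direction over all cells, and their higher sum in short telomere cells came with MIXL1. In gene-poor cells 1 of the 2 mesoderm markers above TPM 1 in at least 5 cells passed downwards (6.33% of all genes), MIXL1 at -1.36. In gene-rich cells 0 passed (8.67% downwards), with MIXL1 at -0.94. The part of either list in the differences of FGF2 and FGF5 was not tested.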

How the data were processed

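Single WA26 cells were analysed by scT&R-seq. The authors sequenced Smart-seq2 cDNA as 50-base single-end reads, mapped it to hg19 and deposited 1 table of TPM values with 2 decimals and 1 column for each of 121 cells; the submitters' processing notes name TopHat2 and RSEM, and the methods name HTSeq for counting. Over the 25610 genes read, a cell's deposited TPM summed to between 979828 and 997050. Genes sorted after ZFR were not analysed here. TPM keeps no read number, so depth per cell is unknown, and differences on log2(TPM + 1) understate the change of low genes.

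Groups are those of the labels, and T/R ratios those listed by the study. The 10 genes, the gene lists, the border of 8000 detected genes and the differences used as borders were chosen with earlier results of these data known. Named beside the 10 genes are overlapping and related genes, in each pathway list the 3 with the highest mean TPM and those with a long-short difference of at least 2, the 3 most similar genes, and POU5F1, NANOG and SOX2. One gene that this rule names is not reported here. Shares among all genes are over the 15956 genes above TPM 1 in at least 5 cells, and no statistical test was made. Positions are from a GRCh37 annotation, promoters from RefSeq on GRCh38.p14. Alternatives were other pseudocounts, medians, detection borders, scalings, cell sets and coefficients. Calculations were tested on simulated data. Python 3.11.15 was used with numpy 2.4.6, pandas 2.3.3, scipy 1.17.1 and matplotlib 3.10.9.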

Additional observations from a re-analysis of the deposited data

How the results depend on the processing

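The number of the 10 genes past a long-short difference of 1 in either direction was 5. It was 1 with a pseudocount of 10, 2 between the 40 cells of highest and the 40 of lowest T/R ratio, 2 in gene-rich cells (over 8000 detected genes), and 3 in cells with 4000 to 8000, a set added after the values were seen. In gene-rich cells the difference turned to -0.66 for FGF2, 0.68 for FGF5, -0.85 for SPRY2 and -1.10 for SPRY4, where only 3 short telomere cells remain, and the correlation of FGF5 with the T/R ratio turned to 0.110. With group medians FGF5 turned to 0.0328. The causes were not tested. Over the 10 genes and all alternatives, 66 differences and 67 correlations stayed within the limits set (0.5 on the log2 scale, 0.1 for a correlation), and 39 and 22 moved further without a called value changing sign. Leaving out the cell with the highest TPM of each gene, a choice made after the values were seen, gave 5 genes higher and 1 lower. The median coefficient over the 10 genes moved by less than 0.1 under every alternative run, and the FGFR1 part ran from 65.5 to 71.5%. The FGF2 part, 64.1% over all cells, was 81.9% in gene-rich and 37.7% in gene-poor cells. The long-short difference in genes detected per cell, 1.85, was 0.69 and 0.53 in these sets. No paired analysis was possible because the numbers in the labels only name single cells, so that equal numbers in different groups mark no shared source.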
